A study of Mus musculus with 2 samples.

Results

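The genes described here are 7 genes of antigen presentation by MHC class II molecules, H2-Aa, H2-Ab1, H2-Eb1, H2-DMa, H2-DMb1, Cd74 and Ciita. They were chosen by name, and each matched 1 row among the 31053 gene rows of both deposited matrices. The RNA came from 2 frozen sections through the mouse calvaria, the bony roof of the skull, and was counted on a spatially barcoded array at day 7. The Blank library is labelled as a defect left without collagen/nHA material and Col_nHA as one that received it, and the labels do not spell out nHA. Strain, sex and age of the animals were not given in the sources used here, and all 4992 barcodes are shared between the libraries because they name positions of the same array design. Spots were the barcodes above a minimum of UMIs (unique molecular identifiers, counted transcript molecules) set for each library, which gave 2249 Blank spots with a median of 9733 UMIs and 2471 Col_nHA spots with a median of 13815. The minimum was 37.7% of that median in Blank and 33.9% in Col_nHA, and 265 and 215 barcodes lay within 10% of it. A spot can hold several cells, and fewer cells of a type and less RNA per cell cannot be told apart. Each group is 1 library, so differences lack any check against replicates and p-values are left out. Every interval is an exact 95% interval of counts unless said otherwise, covers counting error only, and compares these libraries rather than the treatments.

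MHC class II molecules display peptides from engulfed proteins to CD4+ T cells, and are made mainly by dendritic cells, B cells and activated macrophages. H2-Aa with H2-Ab1 encode the alpha and beta chain of the classical molecule I-A, and H2-Eb1 encodes the beta chain of I-E. Cd74 encodes the invariant chain, which fills the binding groove until proteases of the endosome trim it. H2-DMa and H2-DMb1 encode the chains of H2-M, which exchanges the remaining invariant chain fragment for peptide. Ciita encodes the coactivator that switches on the class II genes, and interferon gamma is its best known inducer. In healing bone, class II transcripts mark antigen-presenting cells among the infiltrating and resident immune cells.

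Class II promoters carry a conserved X box, bound by the RFX complex, followed by a Y box, bound by NF-Y. Stretches that hold them are shown as background, for members and for other class II genes. Their part in the levels was not tested. The letters searched were GNAAC, for the core of the X box, and TGATTGG, for the Y box. Both strands of the 250 bases before the start used for each promoter window were read. Both were chosen after the class II promoters had been read. The stretches below are from RefSeq on GRCm38.p6, read 5′ to 3′ along the gene, with GNAAC and TGATTGG in capitals. They are H2-Aa at chr17:34287852-34287919 (minus strand), H2-Eb1 at chr17:34305761-34305827, H2-DMb1 at chr17:34153082-34153149, H2-DMb2 at chr17:34145110-34145178, H2-Oa at chr17:34092288-34092355 and H2-Ob at chr17:34238803-34238867 (all plus strand).
H2-Aa: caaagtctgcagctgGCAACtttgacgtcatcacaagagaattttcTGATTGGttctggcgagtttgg
H2-Eb1: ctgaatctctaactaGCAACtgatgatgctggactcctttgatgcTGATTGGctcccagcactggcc
H2-DMb1: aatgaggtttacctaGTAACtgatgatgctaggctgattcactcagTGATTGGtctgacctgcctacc
H2-DMb2: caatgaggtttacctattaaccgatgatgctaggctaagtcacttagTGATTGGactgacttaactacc
H2-Oa: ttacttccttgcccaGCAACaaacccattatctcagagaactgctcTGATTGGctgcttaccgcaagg
H2-Ob: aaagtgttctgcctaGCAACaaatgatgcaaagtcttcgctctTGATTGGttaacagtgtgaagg
The starts of the capitals lay 31 bases apart in H2-Aa, H2-DMb1 and H2-Oa, 30 in H2-Eb1 and 28 in H2-Ob, while H2-DMb2 held the Y letters with no X letters 25 to 40 bases before them. Of the 12 class II genes looked up, 8 had a promoter window available, and 4 of these were members. H2-Ab1, Cd74, Ciita and H2-Ea-ps had no window and were not searched. Of the 8 genes, 6, including H2-Eb2, held the X letters followed by the Y letters with starts 25 to 40 bases apart. Among all 32851 promoter windows 0.362% held that pair, 7.23% held TGATTGG and 79.6% held GNAAC. Neither window of H2-DMa held TGATTGG. The stretch of H2-DMb2, and that of H2-Eb2, which is not shown, lie inside the annotated spans of these genes. Their windows therefore precede later starts than the annotated gene starts.

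The class II transcripts were less abundant in the Col_nHA library than in the Blank library. Summed over the 7 genes they made up 0.195% of the spot UMIs in Blank (1954 CPM, counts of a gene per 1000000 UMIs) and 0.109% in Col_nHA (1091 CPM). The ratio of Col_nHA over Blank, used throughout, was 0.559 (0.552 to 0.565) for the sum and below 1 for each of the 7 genes. The sections also differed in tissue content. Outside the regions rich in transcripts of muscle, skin and choroid plexus, of which each library held different ones, the ratio of the sum was 0.933 (0.918 to 0.947), and without a further region led by skin lipid genes it was 1.15 (1.13 to 1.17). The direction over all spots was therefore not kept in that last set. The set still held the region with the highest class II level in Col_nHA, with 167 Col_nHA spots and 1 Blank spot. Leaving out only the highest region of each library gave a ratio of 0.652. In the only region with at least 50 spots of each library it was 0.488 (0.448 to 0.532).

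The chains of the classical molecules had the lowest ratios. H2-Ab1 had 504 CPM in Blank against 243 CPM in Col_nHA, a ratio of 0.483 (0.471 to 0.495). H2-Aa stood at 450 and 226 CPM, a ratio of 0.502 (0.489 to 0.515). H2-Eb1 stood at 281 and 142 CPM, a ratio of 0.504 (0.487 to 0.521). The 3 chain genes therefore had nearly the same ratio, with overlapping intervals for H2-Aa and its neighbours in that order. The UMI ratio of H2-Aa to H2-Ab1 was 0.894 (0.874 to 0.915) in Blank and 0.929 (0.903 to 0.956) in Col_nHA, and that of H2-Eb1 to H2-Ab1 was 0.559 (0.544 to 0.574) and 0.583 (0.564 to 0.602).

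The genes that serve peptide loading differed less. Cd74, the most abundant member in either library, had 606 CPM in Blank against 398 CPM in Col_nHA, a ratio of 0.657 (0.643 to 0.671). H2-DMb1 stood at 54.6 and 38.1 CPM, a ratio of 0.697 (0.650 to 0.747). H2-DMa stood at 49.4 and 38.7 CPM, a ratio of 0.784 (0.730 to 0.842). The upper bound for H2-Eb1 lay below the lower bounds for Cd74, H2-DMb1 and H2-DMa, so the chain genes and the loading genes did not share 1 ratio beyond counting error. Relative to H2-Ab1 the UMIs of Cd74 were 1.20 (1.18 to 1.23) in Blank and 1.64 (1.597 to 1.68) in Col_nHA. For H2-DMa that value was 0.0980 (0.0929 to 0.103) and 0.159 (0.151 to 0.168), and for H2-DMb1 it was 0.108 (0.103 to 0.114) and 0.156 (0.148 to 0.165).

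Ciita, the coactivator gene, was the rarest member, with 258 UMIs in Blank and 205 in Col_nHA, or 8.40 and 5.10 CPM, a ratio of 0.607 (0.503 to 0.732). That interval took in the ratios of Cd74, H2-DMb1 and, at its edge, H2-Eb1, but not those of H2-Ab1, H2-Aa or H2-DMa. The genes of the class II transcription list, those of the RFX complex and NF-Y together with Creb1, went both ways. Rfx5 stood at a ratio of 0.792 (0.690 to 0.908), Creb1 at 0.953 (0.870 to 1.04) and Nfyc at 1.13 (1.05 to 1.22), the highest of the 7 genes of the class II transcription list, of which 0 passed 2-fold.

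**Figure D1:**
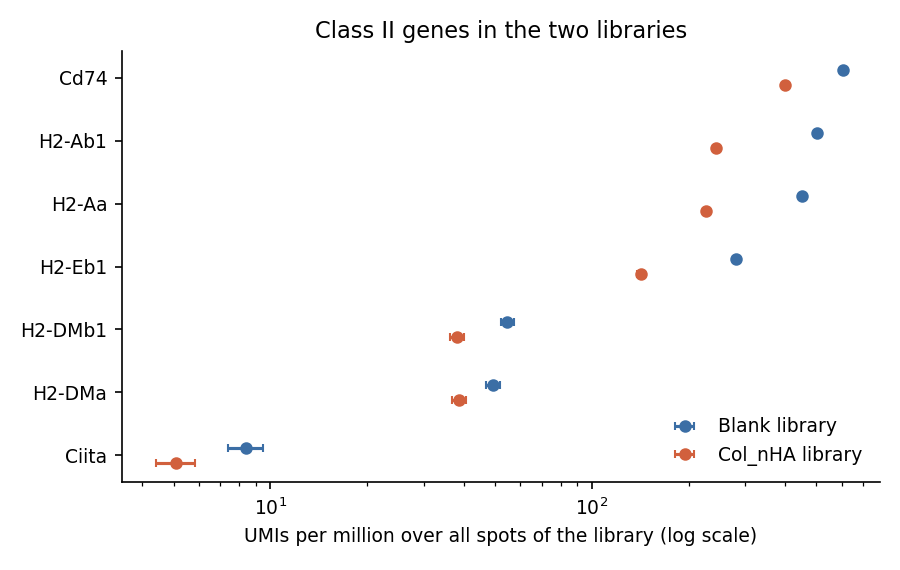
Level of each class II gene in CPM (log axis) over all spots of the Blank and Col_nHA libraries; bars are exact 95% Poisson intervals. Each gene lies lower in Col_nHA, with the widest gaps for H2-Ab1, H2-Aa and H2-Eb1 and the narrowest for H2-DMa.

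Of the 9855 genes that reached 10 CPM in Blank, Col_nHA or both, 3.4% were at least 2-fold lower in Col_nHA and 1.83% at least 2-fold higher. Of the 6 members at that level, all but Ciita, 1 was at least 2-fold lower, H2-Ab1, and 0 were at least 2-fold higher. H2-Aa and H2-Eb1 lay just outside the 2-fold limit. At 1.5-fold, a limit added after the values were seen, 4 of 6 members were lower against 7.07% of all genes, and 0 were higher against 5.13%. The median log2 ratio of the 6 members was -0.80, against 0.02 over all 9855 genes.

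The remaining class II genes were scarce and also had point ratios below 1. H2-DMb2, a second beta chain of H2-M, had 162 UMIs in Blank and 128 in Col_nHA, a ratio of 0.603 (0.475 to 0.766). H2-DMb2 lies next to H2-DMb1 and resembles it, so the split of their counts is uncertain. H2-Oa and H2-Ob encode H2-O, an inhibitor of H2-M found mainly in B cells. H2-Oa had 57 and 47 UMIs, a ratio of 0.630 (0.419 to 0.943), and H2-Ob had 62 and 32, a ratio of 0.394 (0.249 to 0.613). H2-Eb2 had 14 and 12 UMIs, and its interval of 0.277 to 1.53 included 1.

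Class II transcripts were found in most spots and were uneven between them. After every spot was thinned to 3000 UMIs, the share of spots with at least 1 class II UMI was 91.0% (89.7 to 92.1) in Blank and 77.5% (75.8 to 79.1) in Col_nHA. Unthinned, it was 99.1% and 98.0%. For single genes at that depth the shares were 65.7% and 49.3% for Cd74, 61.4% and 40.6% for H2-Ab1, 60.1% and 36.6% for H2-Aa, 46.6% and 25.9% for H2-Eb1, 15.5% and 10.6% for H2-DMb1, 13.5% and 11.05% for H2-DMa and 2.76% and 1.34% for Ciita. The per-spot level of the sum had a median of 1404 CPM in Blank, from 0 to 33461 CPM, and a median of 622 CPM in Col_nHA, from 0 to 21058 CPM. The ranges overlapped almost wholly, while the middle of the distribution was lower in Col_nHA. The tenth of spots with the highest level held 40.3% of the class II UMIs in Blank and 46.9% in Col_nHA. In thinned spots the variance of the summed count was 9.10 times its mean in Blank and 7.11 times in Col_nHA, whereas for Ciita it was 1.004 and 0.987 times the mean, close to Poisson counting.

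**Figure D2:**
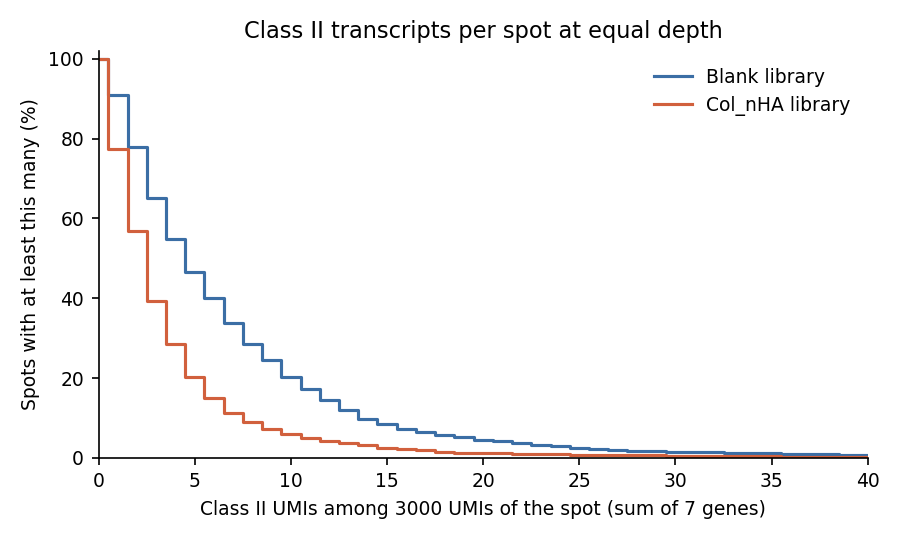
Share of spots (vertical axis, %) with at least the number of class II UMIs on the horizontal axis, out of 3000 UMIs per spot, for Blank and Col_nHA; the axis ends at 40 UMIs. The Blank curve lies above the Col_nHA curve, starting from 91.0% and 77.5% of spots with at least 1 class II UMI.

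Barcodes under the UMI minimum also held class II transcripts. Those with at least 1000 UMIs, 1724 in Blank and 1904 in Col_nHA, were thinned to 1000. A class II UMI was then found in 66.2% of these Blank and 59.3% of these Col_nHA barcodes, against 69.9% and 50.2% of spots at that depth. For Col_nHA the share in spots was therefore below that in barcodes under the minimum, so shares alone do not set its spots apart from such barcodes. Without an image, barcodes under tissue and off it could not be told apart. The shares above count spots with a UMI, not spots whose cells express class II. All barcodes under the minimum, 2743 in Blank and 2521 in Col_nHA, were also summed, including those with fewer than 1000 UMIs. Their class II level was 1348 CPM (1312 to 1383) in Blank and 1122 CPM (1092 to 1152) in Col_nHA, a ratio of 0.832 (0.802 to 0.864). For Cd74, H2-DMa, H2-DMb1 and Ciita the interval of the ratio in these barcodes included 1.

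The members varied together across spots as far as their counts allowed. In spots thinned to 3000 UMIs, Spearman's rho between pairs of H2-Aa, H2-Ab1, H2-Eb1 and Cd74 lay between 0.397 and 0.511 over 2249 spots in Blank and between 0.279 and 0.363 over 2471 spots in Col_nHA. The highest value was that of H2-Ab1 with Cd74 in Blank and that of H2-Aa with Cd74 in Col_nHA. Pairs with H2-DMa or H2-DMb1 reached at most 0.171, in counts too sparse to read. Spots of 1 library share that library and its free RNA, so these values are descriptions.

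By the same measure, the genes outside the class II lists most like the class II sum in both libraries were ranked by the lower of the 2 libraries' rho among 6424 genes with at least 20 CPM in each. The highest 3 were the MHC class I genes B2m, H2-K1 and H2-D1, with rho of 0.423, 0.530 and 0.385 in Blank and 0.378, 0.342 and 0.307 in Col_nHA. H2-K1 and H2-D1 have close relatives in the genome, so their counts are uncertain to that extent. Next came the chemokine gene Ccl8 (0.532 and 0.258), the interferon-induced gene Ifi27l2a (0.440 and 0.224), the complement gene C3 (0.481 and 0.223), the lysosomal membrane gene Laptm5 (0.213 and 0.215), Ly6a, which encodes the surface antigen Sca-1 (0.597 and 0.208), the complement gene C1qb (0.209 and 0.208) and the lipid carrier gene Apoe (0.207 and 0.222).

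Most class I and processing genes had ratios above 1. Of 17 genes of class I presentation, 0 passed 2-fold and 1, Tapbp, had a ratio below 1, at 0.946 (0.921 to 0.971), with a list median log2 ratio of 0.26. B2m, the light chain of class I, had 1690 CPM in Blank against 2018 CPM in Col_nHA, a ratio of 1.19, and H2-D1 at 1.28, while H2-Q6 and H2-Q7, the genes of the list with the largest log2 ratios, stood at 1.45 and 1.39. Among the proteases and regulators of the class II route, 2 of 7 measured genes were at least 2-fold higher in Col_nHA. They were Ctss, the cathepsin that makes the late cuts in the invariant chain, at 2.57 (2.53 to 2.62), and Ctsl at 2.495 (2.46 to 2.53), with the abundant Ctsb and Ctsd at 1.27 and 1.44 and March8 below 1, at 0.841 (0.774 to 0.914). The UMI ratio of Cd74 to Ctss was 1.09 (1.07 to 1.12) in Blank and 0.279 (0.274 to 0.284) in Col_nHA. Of 12 measured genes of the interferon gamma axis 0 passed 2-fold, with Ifngr1 at 0.953 and Cxcl10 at 1.58, and Ifng itself had 8 UMIs in Blank and 6 in Col_nHA, an interval of 0.164 to 1.88. The co-stimulatory ligand genes Cd86 and Cd274 stood at 1.17 and 1.604.

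Markers of the cells that carry class II went in different directions. The summed macrophage and monocyte list summed to 6468 CPM in Blank against 8728 CPM in Col_nHA, with 0 of 13 measured genes past 2-fold, Lyz2 at 1.46, C1qb at 1.09, Cd14 at 1.85 and Fcgr1 at 1.79. The resident macrophage list stood at 379 and 283 CPM, with all 10 genes below a ratio of 1 and 2 of 6 measured genes at least 2-fold lower, Retnla at 0.262 and Lyve1 at 0.447, while the abundant Mrc1 and F13a1 stood at 0.801 and 0.808. The dendritic cell list stood at 307 and 399 CPM and was split. Cd209a and Clec10a, lectin genes of monocyte-derived and type 2 conventional dendritic cells, stood at 0.212 (0.168 to 0.265) and 0.291 (0.263 to 0.321). The integrin gene Itgax stood at 2.57 (2.39 to 2.77) and the abundant Fscn1, also expressed outside dendritic cells, at 1.41. Macrophages express Clec10a and Itgax too. Cd24a stood at 1.64 (1.53 to 1.77) and Ccr7, the receptor of migrating dendritic cells, at 1.41 (1.20 to 1.67), so that 4 of 6 measured genes of the list were above 1, and Ly75, below 10 CPM, had 83 and 332 UMIs. Xcr1 and Clec9a, markers of type 1 conventional dendritic cells, had 53 and 29 UMIs in Blank and 15 and 19 in Col_nHA. The B and plasma cell list stood at 48.1 and 30.02 CPM, most of it Ighm at a ratio of 0.529, with 20 and 18 UMIs of Cd79a. Cd22 went the other way, with 130 and 272 UMIs. Cd207, the Langerhans cell gene, had 46 and 17 UMIs, and Mfge8 of the same list stood at a ratio of 1.17. None of the genes of these 5 lists was at 0 in either library, and their part in the class II difference was not tested. In the 1420 Blank and 1704 Col_nHA spots without any UMI of the B and plasma cell list, the summed class II ratio was 0.615.

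The other lists were as follows, by the sum of their CPM in Blank and Col_nHA. The lipid-associated macrophage list stood at 4175 and 13589 CPM, led by Spp1 at a ratio of 5.74 and with Gpnmb at 3.92 and Fabp5 at 1.69. The T cell list stood at 65.6 and 89.4 CPM, with Il7r at 3.53 and Trbc2 at 0.687. Without Il7r the T cell list turned, at 52.1 and 41.8 CPM. Its genes went both ways, and 6 of the 12 genes of the whole list had ratios below 1. Cd3e stood at 0.555 and Cd4 had 177 and 144 UMIs, whereas Trac had 266 and 378 UMIs. The neutrophil list stood at 232 and 321 CPM and the endothelial list at 407 and 522 CPM. Of the tissue lists, skeletal muscle stood at 5757 and 13582 CPM, skin at 2429 and 1679, fat at 410 and 62.7, nerve and brain at 83.9 and 30.4, and choroid plexus at 12004 and 21.2 CPM.

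To see which tissue held the class II transcripts, the spots of both libraries were clustered together without any class II gene, which gave 16 regions, each known here by its number and leading genes. Only region 11, led by the osteocalcin genes Bglap and Bglap2, held at least 50 spots of each library. Among regions with at least 50 spots of the library, the class II level in Blank was highest in region 10, led by Sln, Myog and Myh3, genes of regenerating muscle, at 4987 CPM (4926 to 5049). These 400 spots were 17.8% of Blank spots and held 42.4% of its class II UMIs. Region 6, led by 9130204L05Rik, Pnpla5 and Defb8 and with the skin lipid genes Awat1 and Elovl3 among its 10 leading genes, followed at 3470 CPM (3391 to 3550), and region 7, led by the cornified skin genes Flg2, Krt77 and Lor, at 2625 CPM (2560 to 2692). Regions 2 (Gpha2, Matn4, Eln) and 11 stood at 1494 and 1099 CPM. The lowest levels in Blank were those of region 0, led by the tendon gene Tnmd, with 691 CPM, and, with 621 CPM, region 9, led by Ins2, the choroid plexus gene Ttr and Kl.

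In Col_nHA the highest level lay elsewhere. Region 1, led by Ly6c2, Cxcl10 and Acod1, genes of inflammatory monocytes and of the interferon response, stood at 4271 CPM (4189 to 4353), and its 167 spots, 6.76% of the library, held 23.8% of the class II UMIs. Among regions with 50 spots of the library, region 3 (Dlk1, Cfb, Sfrp1) followed at 1527 CPM and region 12 (Npy, Mmp12, Rgs1) at 1124 CPM. Regions 14 (Saa3, Arg1, Cxcl5), 8 (Ptgdr, Col6a5, Penk) and 4 (Cnn1, Mmp9, Acp5) stood at 936, 935 and 866 CPM, and the intervals of regions 14 and 8 overlapped. Region 15, led by the wound keratin gene Krt6b and Sprr2a3, stood at 741 CPM, and region 13, led by the fast muscle gene Myh4 and Mettl21c, at 343 CPM (324 to 362). The high-class II muscle of Blank and the low-class II muscle of Col_nHA are thus muscle regions of different genes, and neither has a counterpart of 50 spots in the other library.

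The single genes differed in which of the highest regions they favoured. Cd74 stood at 1559 CPM in region 10 of Blank and 1646 CPM in region 1 of Col_nHA, the highest levels of any region with 50 spots. H2-Ab1 stood at 1314 and 889 CPM in these regions, H2-Aa at 1185 and 929 CPM, and H2-Eb1 at 726 and 535 CPM. H2-DMa was higher in region 1, at 154 CPM, than in region 10, at 91.3 CPM, and H2-DMb1 stood at 101 and 96.2 CPM. Ciita stood at 18.0 CPM in region 1, 16.5 in region 6 and 15.9 in region 10.

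The number of class II transcripts per macrophage transcript differed widely between regions. Region 10 held 82.9 class II UMIs per 100 UMIs of the macrophage and monocyte list, region 6 held 90.4 and region 7 held 74.4, whereas region 1 held 24.8. Within Col_nHA, regions 1 and 12 had the highest levels of the macrophage and monocyte list and region 13 had the lowest level of both that list and class II, among regions with 50 spots. Region 12 of Col_nHA had the highest level of the macrophage and monocyte list among regions with 50 spots, 18722 CPM, and held 6.005 class II UMIs per 100 of them. The lipid-associated macrophage list reached 40877 CPM there and 2280 CPM in region 10, where the resident macrophage list stood at 684 CPM, against 671 CPM in region 3 of Col_nHA.

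**Figure D3:**
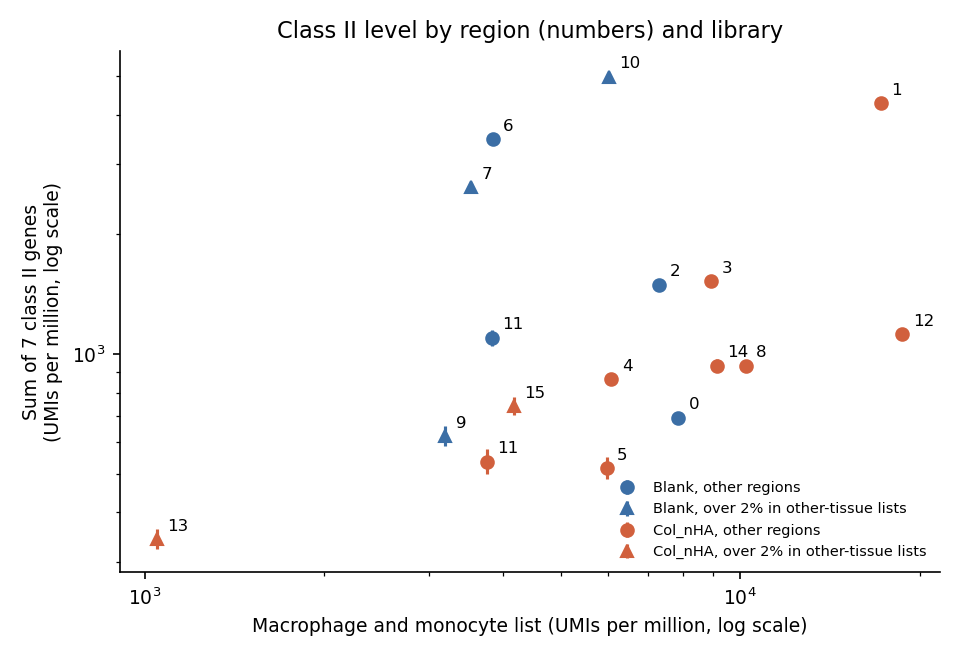
Summed level of the 7 class II genes against the summed macrophage and monocyte list, both in CPM on log axes, for each region (number) with at least 50 spots in a library; bars are exact 95% Poisson intervals, triangles are regions with over 2% of UMIs in the skin, muscle, fat, nerve, brain and choroid plexus lists. Regions 10, 6 and 7 of Blank lie high at macrophage levels of 6017, 3837 and 3529 CPM, and region 1 of Col_nHA lies high at 17221 CPM.

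The gap between the libraries was then taken apart by tissue, a split chosen after the regions had been seen. Regions 7, 9, 10, 13 and 15 had over 2% of their UMIs in the skin, muscle, fat, nerve, brain and choroid plexus lists. They held 869 Blank spots with 54.8% of the Blank class II UMIs, and 419 Col_nHA spots with 6.76% of the Col_nHA class II UMIs. Their class II level was 3506 CPM in Blank and 519 CPM in Col_nHA, a ratio of 0.148 (0.142 to 0.154), which compares unlike tissues. In the remaining 1380 and 2052 spots the level was 1272 CPM (1257 to 1287) and 1186 CPM (1175 to 1198). These spots still held region 6, with skin lipid genes among its leading genes, which was almost wholly Blank, with 183 spots against 9 in Col_nHA. With region 6 included, H2-Ab1, H2-Aa and H2-Eb1 stood at 0.836 (0.810 to 0.863), 0.860 (0.832 to 0.889) and 0.846 (0.811 to 0.882). H2-DMb1 stood at 0.952 (0.876 to 1.03) and H2-DMa at 1.04 (0.952 to 1.13), both with intervals that included 1, as did that of Ciita (0.649 to 1.01). Cd74 stood at 1.09 (1.06 to 1.12), on the other side of 1 from its ratio over all spots. Without region 6 as well, 1197 Blank spots stood at 1030 CPM (1016 to 1044) and 2043 Col_nHA spots at 1184 CPM (1173 to 1196), so the direction turned. In those spots Cd74 stood at 1.35 (1.31 to 1.39), H2-DMa at 1.17 (1.07 to 1.28), H2-Ab1 at 1.07 (1.03 to 1.11) and H2-Aa at 1.04 (1.01 to 1.08), while the intervals of H2-Eb1, H2-DMb1 and Ciita included 1. Region 1, the highest of Col_nHA with 167 spots against 1 in Blank, was kept among the remaining spots, both with and without region 6. The part of tissue content in the ratio over all spots was not tested further.

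The surplus of Cd74 over the chain genes was seen in either kind of region. The UMI ratio of Cd74 to H2-Ab1 was 1.27 (1.23 to 1.31) in Blank and 1.66 (1.61 to 1.70) in Col_nHA in the remaining regions, 1.32 (1.27 to 1.37) and 1.66 (1.62 to 1.70) there without region 6, and 1.15 (1.12 to 1.18) and 1.41 (1.28 to 1.55) in the regions of other tissues. Among regions with 50 spots it ran from 1.03 in region 7 to 1.37 in region 2 in Blank. In Col_nHA it ran from 1.20 in region 14 to 1.94 in region 12, with 1.85 in region 1 and 1.81 in region 8. The ranges overlapped between the libraries, and the 3 regions at 1.81 or more were in Col_nHA.

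**Figure D4:**
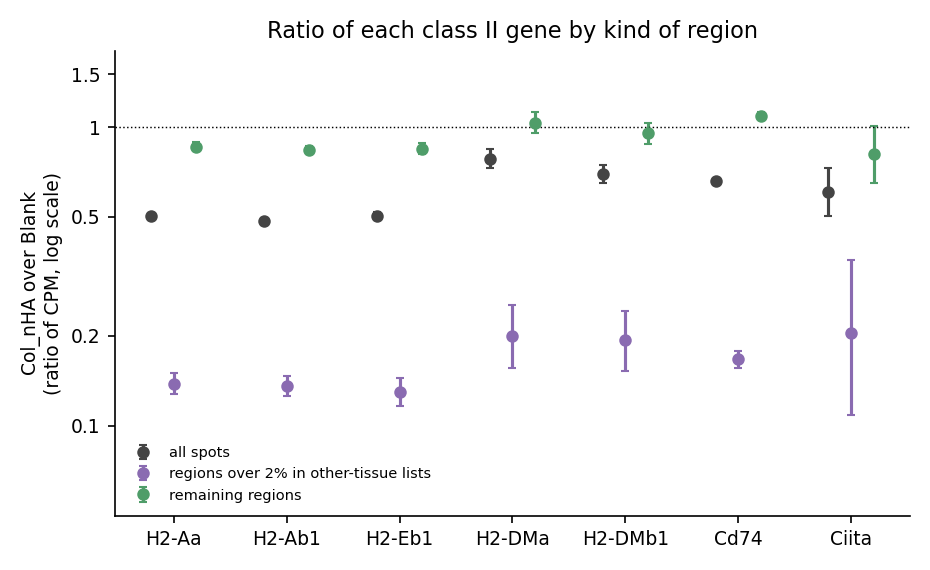
Ratio of CPM, Col_nHA over Blank (log axis), for each class II gene over all spots, in the regions of other tissues (7, 9, 10, 13 and 15), and in the remaining regions, which include region 6; bars are exact 95% intervals, and the dotted line marks 1. In the remaining regions H2-Aa, H2-Ab1 and H2-Eb1 lie at 0.860, 0.836 and 0.846 and Cd74 at 1.09, while in the other-tissue regions Cd74 lies at 0.167.

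In region 11, the bone-forming profile, 137 Blank and 101 Col_nHA spots could be set side by side. The class II level was 1099 CPM in Blank and 537 CPM in Col_nHA, a ratio of 0.488 (0.448 to 0.532). The ratio there was 0.428 for H2-Ab1, 0.401 for H2-Aa, 0.452 for H2-Eb1, 0.656 for H2-DMa, 0.660 for H2-DMb1 and 0.586 for Cd74, while Ciita had 6 UMIs in Blank and 1 in Col_nHA there, an interval of 0.00412 to 1.56. In the same spots the resident macrophage list stood at 580 and 122 CPM. The B and plasma cell list stood at 119.8 and 21.0 CPM, and the macrophage and monocyte list at 3826 and 3759 CPM. Higher in Col_nHA were the dendritic cell list at 250 and 263 CPM and the Langerhans cell list at 187 and 208 CPM. So were the T cell list at 20.3 and 40.5 CPM and the lipid-associated macrophage list at 3163 and 6030 CPM. The part of any of these cell types in the class II ratio was not tested. Region 12 was too small in Blank for a ratio, with 48 spots at 1049 CPM against 234 spots at 1124 CPM in Col_nHA. Region 8 had 36 Blank spots at 1791 CPM and 382 Col_nHA spots at 935 CPM.

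The comparison was repeated within quartiles of the share of UMIs in the macrophage and monocyte list over the spots of both libraries. In all spots the class II ratio was 0.318 (0.308 to 0.329) in the lowest quartile, 0.412 and 0.493 in the next ones and 0.743 (0.728 to 0.758) in the highest. In the highest quartile H2-DMa stood at 1.06 (0.947 to 1.20) and Cd74 at 0.885 (0.856 to 0.916), against 0.647 (0.621 to 0.674) for H2-Ab1. Macrophage content was not alike within the highest quartile, where the list had 11836 CPM in Blank against 16798 CPM in Col_nHA, with 20.1 and 10.5 class II UMIs per 100 UMIs of the list. Without the regions of other tissues the ratio was 0.454 (0.435 to 0.474), 0.579 and 0.792, and 1.40 (1.36 to 1.43) in the highest quartile. Without region 6 as well it was 0.847 (0.798 to 0.900), 0.892, 0.903 and 1.41 (1.38 to 1.45). The Blank level then went from 685 CPM in the lowest to 1251 CPM in the highest quartile and the Col_nHA level from 580.3 to 1770 CPM, with the macrophage list in the highest at 11845 and 16832 CPM. Over all spots there were 30.2 class II UMIs per 100 UMIs of the macrophage and monocyte list in Blank and 12.5 in Col_nHA.

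Across single spots the class II sum went with different lists in each library. Spearman's rho with the class I list was the highest of any list in Col_nHA, at 0.413, and stood at 0.562 in Blank, where the skeletal muscle list reached 0.574. In Col_nHA the muscle list stood at -0.04. The macrophage and monocyte list stood at -0.004 in Blank and 0.286 in Col_nHA, and the resident macrophage list at 0.349 and 0.139. The interferon gamma axis stood at 0.249 and 0.229. Without the regions of other tissues, but with region 6, rho with the muscle list was 0.340 over 1380 Blank spots and 0.114 over 2052 Col_nHA spots, and rho with the macrophage and monocyte list was 0.0852 and 0.201.

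**Figure D5:**
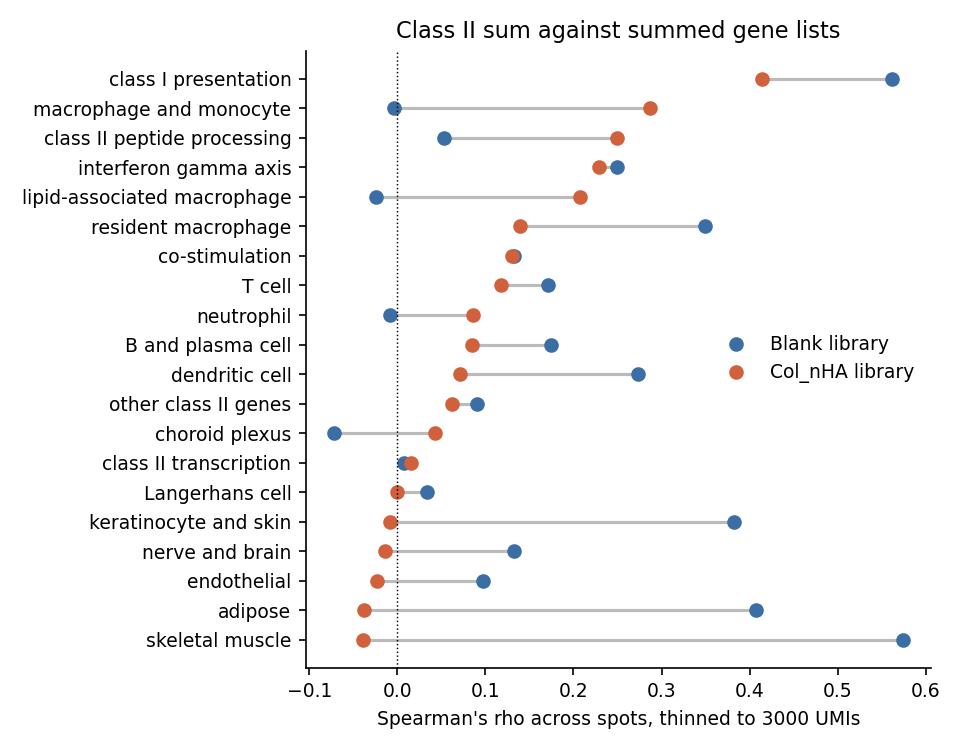
Spearman's rho across spots, at 3000 UMIs per spot, between the summed class II count and the summed count of each gene list, for Blank (2249 spots) and Col_nHA (2471 spots). The class I list lies at 0.562 and 0.413, and the muscle list at 0.574 in Blank and -0.04 in Col_nHA.

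By position in GRCm38.p6, the assembly behind mm10, the members of the H2 complex lie on chromosome 17. H2-DMa (ENSMUSG00000037649) spans 34119693 to 34139101, H2-DMb1 (ENSMUSG00000079547) 34153191 to 34160229, H2-Ab1 (ENSMUSG00000073421) 34263227 to 34269418, H2-Aa (ENSMUSG00000036594) 34282744 to 34287823 and H2-Eb1 (ENSMUSG00000060586) 34305867 to 34316674. Cd74 (ENSMUSG00000024610) lies on chromosome 18 from 60803849 to 60812652 and Ciita (ENSMUSG00000022504) on chromosome 16 from 10480014 to 10531064. All 7 are protein-coding in that annotation.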

How the data were processed

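Each library came as raw UMI counts per gene and barcode, which the authors deposited unfiltered; per the submitters' processing notes they used Space Ranger with build mm10, without a version among these sources, and the file headers name Cell Ranger 4. The labels' extraction text describes a droplet 3′ library and their description a spatial one. No image or spot coordinates were used. Spot UMIs totalled 30705849 in Blank and 40202268 in Col_nHA and were summed and scaled to CPM. Ratios have exact conditional binomial intervals, CPM Poisson and shares Clopper-Pearson intervals, and a count of 0 was set at a floor of 3. UMIs count 3′ ends, so gene length does not enter, but capture may differ between genes, so ratios between genes are compared only across libraries or regions. The members and the 21 gene lists were chosen with earlier results of these data known; of 200 list entries, 198 were found. Besides the members, the text names from each list 2 genes by abundance and 2 by absolute log2 ratio among those at 10 CPM, left out for the lists of neutrophil, endothelial and other tissues, and some genes that this rule picks are not reported here; genes beyond this rule, such as Xcr1, Clec9a, Ccr7, Cd24a, Ly75, Cd79a, Cd22, Cd207, Cd4, Cd3e, Tapbp, March8 and Ifng, were chosen after their values were seen. Clustering used 2000 variable genes, 30 components, 15 neighbours and Leiden resolution 0.6; leading genes had at least 50 CPM and the highest fold over the remaining spots. The calculations were tested on simulated data. TMM factors alone came from edgeR 4.0.16 in R 4.3.3. The rest used Python 3.11.15 with scanpy 1.11.5, igraph 0.11.9, scipy 1.17.1, numpy 2.4.6, pandas 2.3.3 and matplotlib 3.10.9. The alternatives tried are given at the end.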

Additional observations from a re-analysis of the deposited data

How the results depend on the processing

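The summed class II log2 ratio of -0.84 kept its sign under 13 of 14 alternatives. It was -0.78 with every barcode, -0.80 with TMM factors, -0.79 with median-of-ratios scaling, -1.004 as a mean of per-spot CPM, -0.54 without spots rich in other tissues (more than 2% of their UMIs) and -0.70 in spots without a B or plasma cell UMI. Under settings added after the data were seen it was -0.31 without region 10, -0.62 without regions 10 and 1, -0.10 without the regions of other tissues and -1.02 for H2-Aa, H2-Ab1 and H2-Eb1 alone. Without the regions of other tissues Cd74 stood at 0.12 and H2-DMa at 0.0498, the opposite sign. Without region 6 as well, but with region 1 kept, the summed log2 ratio turned to 0.20. H2-Aa then stood at 0.0612, H2-Ab1 at 0.0973, H2-Eb1 at 0.0611, H2-DMa at 0.23, H2-DMb1 at 0.0942 and Cd74 at 0.43. The cause was not tested. The count of members at least 2-fold lower was 1, against 3.4% of all genes at 10 CPM. It was 0 with every barcode, without spots rich in other tissues and in spots without a B or plasma cell UMI. As a mean of per-spot CPM it was 3. At 1.5-fold it was 4, against 7.07% of all genes. For the settings that gave 0 and 3 the share of all genes is not reported here, so these counts cannot be read against it. Spots with a class II UMI made up 69.9% of Blank and 50.2% of Col_nHA at 1000 UMIs, and 99.1% and 98.0% without thinning, as fewer or more UMIs were drawn. The highest region of Blank stood at 4904 CPM at resolution 0.3, 6222 CPM at 1.0 and 5395 CPM with class II genes kept, and that of Col_nHA at 2084, 4946 and 4386 CPM. At resolution 0.3 the highest region of Col_nHA held 719 spots, 165 of them among the 167 of region 1. The ratio of class II UMIs per macrophage UMI was 0.414, and 0.387 without C1q genes, 0.509 without spots rich in other tissues, 0.425 at 8000 UMIs, 0.488 without Lyz2 0.684 without the regions of other tissues and 0.886 without region 6 as well. No paired analysis was possible because each group has 1 library. UMI totals limit Ciita and the remaining class II genes most.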

Other observations

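The 5 spots with the highest class II level in Blank all lay in region 10, the regenerating muscle profile, and ran from 20788 to 33461 CPM. The highest held 1102 class II UMIs of 32934, with 28 UMIs of the T cell list, 9 of the B and plasma cell list, 23 of the dendritic cell list and 641 of the macrophage and monocyte list. In Col_nHA the highest 2 lay in region 1 and the next 3 in region 3. The highest of these held 690 class II UMIs of 32766, with 9, 4, 30 and 796 UMIs of the same lists. Of the tenth of spots with the highest level, 117 of 225 in Blank lay in region 10 and 91 of 248 in Col_nHA in region 1. These spots were picked by their class II level, so the values describe them and test nothing.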
